A study of Mus musculus with 6 samples.

Results

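The 165 circular RNAs described here gave signal in both fractions of an m6A immunoprecipitation of mouse heart RNA, and lay on the side of the supernatant on 5 of 6 arrays. They were chosen among 3096 circRNA probes whose IP and supernatant spots all passed the scanner software's background test and carried no outlier mark, of 14236 circRNA probes on the array. The log2 ratio of precipitated (IP, Cy5) over supernatant (Cy3) signal, with the median circRNA probe of each array set to 0, had to be below -1 on control 2, control 3 and the 3 exposed arrays. A value of -1 means that supernatant over IP was 2 times what it was for the median circRNA of that array. The ratio on control 1 was not used to choose, though detection there in both fractions was required. The 165 are 5.33% of the 3096 and 1.16% of all circRNA probes.

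The samples are hearts of BALB/c mice, 3 labelled control and 3 exposed to chronic intermittent hypoxia (CIH), used to model sleep apnea. In the CIH chamber, 60 s at 6% O2 alternated with 60 s at 21%, which makes a 2 min cycle and 30 cycles an hour, kept up 8 h daily over 8 weeks. The labels do not describe the air of the controls. Each array holds both fractions of 1 sample, treated with RNase R to remove linear RNA, with no dye swap. By the file headers, the 3 control arrays and CIH 1 shared a slide that CIH 2 and CIH 3 were not on. For CIH 2 and CIH 3, exposure and slide cannot be told apart. The samples are numbered as replicates and not said to be separate animals, so the p-values rest on a sample-to-sample spread that may be technical. The labels give heart as the tissue, yet their extraction text describes a kit for blood and a globin depletion step. In bulk tissue, fewer cells of a type and less RNA per cell cannot be told apart.

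A circRNA is made when the splicing machinery joins the end of an exon to an upstream start, which leaves a closed loop without free ends that exonucleases such as RNase R cannot start on. N6-methyladenosine (m6A) is written on RNA by the METTL3 and METTL14 complex, removed by FTO and ALKBH5, and bound by readers of the YTH family. In circRNAs it is known to recruit YTHDF proteins that favour translation or decay. In this assay an m6A antibody sorts molecules into an IP and a supernatant fraction, so a low ratio describes a circRNA with more supernatant signal for its IP signal than the median circRNA of the array, and gives no share of molecules. The probes are named by the vendor's ID only: 0 of the 14236 IDs matched the gene tables used here, so the 165 are described by ID and value, with no host gene or sequence.

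The IP channel detected 4521 to 7224 circRNA probes per array and the supernatant channel 3862 to 6235. Of 11 cardiomyocyte markers only Hspb7, a small heat shock protein gene of heart and skeletal muscle, has a probe among the 46 named mRNA probes, and 0 of the markers listed for fibroblasts, endothelium, leukocytes, red blood cells and smooth muscle do. The labelled tissue could therefore be checked on 1 gene only. The ratios of control 1 were unlike those of the remaining arrays. Across the 3096 circRNAs, its log2 supernatant signal correlated at r = 0.95 to 0.98 with the IP signal of the other arrays and at 0.90 to 0.94 with their supernatant signal. The supernatant signal of each other array correlated more with the supernatant (0.96 to 0.99) than with the IP (0.87 to 0.94) of the rest, control 1 left out. The library labelled supernatant of control 1 thus resembled the IP libraries, and incomplete separation of the fractions and a mixed-up fraction cannot be told apart here. Each comparison of the groups over the whole set below is given with and without control 1. Single members are given by array, with changes over all 6 arrays unless stated. In the 165 the median supernatant spot was 24.3 times its local background on control 2, 14.8 on control 3, and 24.9, 22.9 and 19.0 on CIH 1, 2 and 3, but 7.08 on control 1. The median IP spot was 3.89 to 8.16 times its background over the 6 arrays, and the dimmest IP spot of the set lay at 1.65 times.

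On the 5 arrays of the rule, the supernatant signal of the median member exceeded its IP signal several-fold relative to the array's median circRNA. The median log2 ratio of the 165 was -2.64 on control 2 and -2.90 on control 3, which is 6.22-fold and 7.45-fold toward the supernatant. It was -2.0, -2.44 and -2.34 on CIH 1, 2 and 3, or 4.0-fold, 5.43-fold and 5.06-fold. These ratios chose the set and are given as a description. The deepest single ratio was -6.34, on control 3. For 109 of the 165 the lowest of the 5 ratios was on control 3, and for 107 the highest was on CIH 1.

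**Figure D1:**
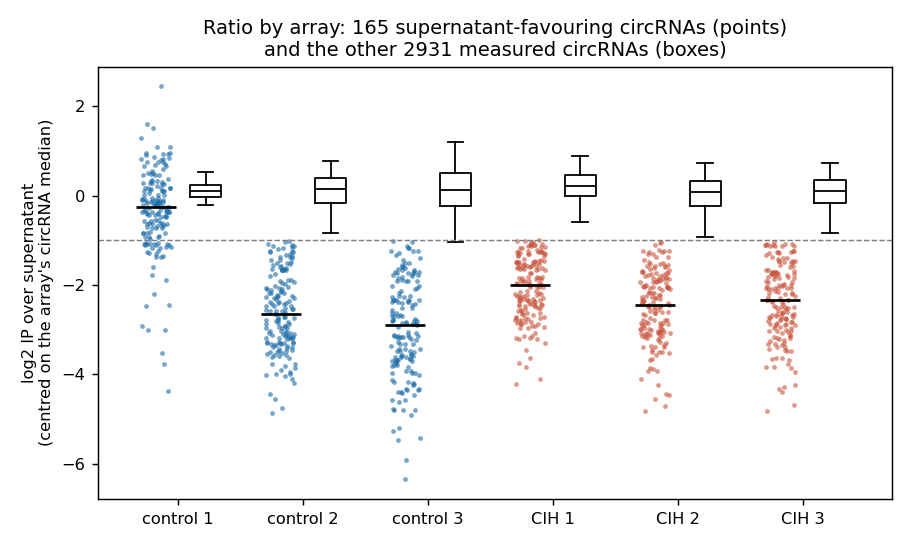
Log2 ratio of IP over supernatant signal (vertical axis, centred on each array's circRNA median) on each of the 6 arrays, with 1 point per supernatant-favouring circRNA (n = 165, blue for control and red for CIH, black bar at the median) beside boxes for the other 2931 circRNAs (quartiles, whiskers at percentiles 5 and 95). The dashed line is the cutoff of -1. On control 1, whose ratio was not used to choose, the points center on -0.25.

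Averaged over the 5 arrays, 53 of the 165 lay between -1 and -2, 62 between -2 and -3, 44 between -3 and -4 and 6 below -4. The median of these means was -2.46, with quartiles of -3.07 and -1.84. The 2 lowest were ASCRP4008435 and ASCRP4009097. ASCRP4008435 had a ratio of -4.85 on control 2, -6.34 on control 3, and -4.20, -4.81 and -4.81 on CIH 1, 2 and 3. ASCRP4009097 had -4.75, -5.91, -4.10, -4.43 and -4.69 on the same arrays. In both, control 3 was the lowest array and CIH 1 the highest. At the other end, ASCRP4004851 had a mean of -1.12 and ASCRP4003169 of -1.15.

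The order of the members was similar on the 5 arrays. Across the 165 circRNAs, which are not independent replicates and share arrays and dyes, the ratios of these arrays correlated at r = 0.76 to 0.92 in pairs. Over the other 2931 circRNAs these correlations ran from 0.55 to 0.87. The SD of a member's ratio over the 5 arrays had a median of 0.44, beside 0.22 over all 3096 measured circRNAs. Among the members the SD was smallest for ASCRP4009142, with 0.080 around a mean of -1.28, and for ASCRP4014182, with 0.13 around -2.32. The SD was 1.51 for ASCRP4006918, the highest of the 165. Its ratio was -5.42 on control 3, against -2.07 on control 2 and -1.61, -2.30 and -2.61 on CIH 1, 2 and 3. For ASCRP4006903, the next most variable, the ratio was -3.61 on control 3 and between -2.03 and -1.12 on the other 4. In both, control 3 was the lowest array by a wide margin.

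The cutoff divides a continuous distribution. The members nearest to it were ASCRP4004660, whose highest ratio on the 5 arrays lay just below the cutoff, and ASCRP4009628, with -1.01. Just outside were ASCRP4006710, with ratios of -2.35, -3.40, -1.04, -1.10 and -0.997 on control 2, control 3 and CIH 1 to 3, and ASCRP4000534, with a highest ratio of -0.988. Within 0.25 of the cutoff there were 38 members on the inside and 39 circRNAs on the outside. Of the 3096, 47 were below -1 on 4 of the 5 arrays and 2690 on none.

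Members were spread over the array surface, with 38, 39, 43 and 45 in 4 successive blocks of array rows, or 4.90%, 5.03%, 5.56% and 5.83% of the circRNAs measured there. Ratios as low were also read by a few probes of other kinds. The labels say that spike-in RNA was added to both fractions in equal amount, without saying which probes read it. Of 42 probes with a spike-in name detected throughout, 2 lay below -1 on all 5 arrays. Probe ASSPINKEIN100007393 had a mean of -4.04 over the 5 arrays and -3.14 on control 1. The other, ASSPINKEIN100007053, had -2.76 and -0.92. Of 4 measured circRNA control probes of the vendor, 1 was as low, with a mean of -4.01 and -3.16 on control 1. Of 16 measured mRNA probes 1 lay below -1 on all 5 arrays, that of Hspb7. Its ratios were -0.46, -3.57 and -3.68 on control 1, 2 and 3 and -2.90, -3.18 and -3.30 on CIH 1, 2 and 3. For these other kinds of probe, freedom from outlier marks was not required. With no dye swap, a ratio also carries the probe's own response to the dyes, and its part in the 165 low ratios was not tested.

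The ratio on control 1 was not used to choose the set. The supernatant of that array resembled the IP libraries, so its ratios are given as those of 1 array that stands apart. On it the median log2 ratio of the 165 was -0.25, or 1.19-fold toward the supernatant, and the values ran from -4.38 to 2.45. Below -1 were 33 of the 165 (20%), against 2 of the other 2931 circRNAs (0.0682%). Another 75 lay between -1 and 0 and 57 at or above 0. The ratio of 160 of the 165 was higher on control 1 than on any of the 5 other arrays, which held for 640 of the other 2931.

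The 33 that stayed below -1 on control 1 had lower ratios on the other arrays too. Their 5-array means had a median of -3.09 and ran from -5.01 to -1.94, against a median of -2.29 and a range of -4.40 to -1.12 for the other 132. Over the 132, the control 1 ratio and the 5-array mean correlated across circRNAs at r = 0.026, and over all 165 at r = 0.41. The 132 were set apart by the control 1 ratio itself, which narrows its range and can by itself lower r. A group of 9 members stayed below -2 on control 1. The lowest there were ASCRP4009097, with -4.38 on control 1 and a mean of -4.77 on the other 5, and ASCRP4006634, with -3.77 and -4.42. The highest on control 1 were ASCRP4007838, with 2.45 against a mean of -2.49, and ASCRP4004008, with 1.59 against -1.83. The set thus held members whose ratio on control 1 was close to that elsewhere and members whose ratio there had the opposite sign.

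**Figure D2:**
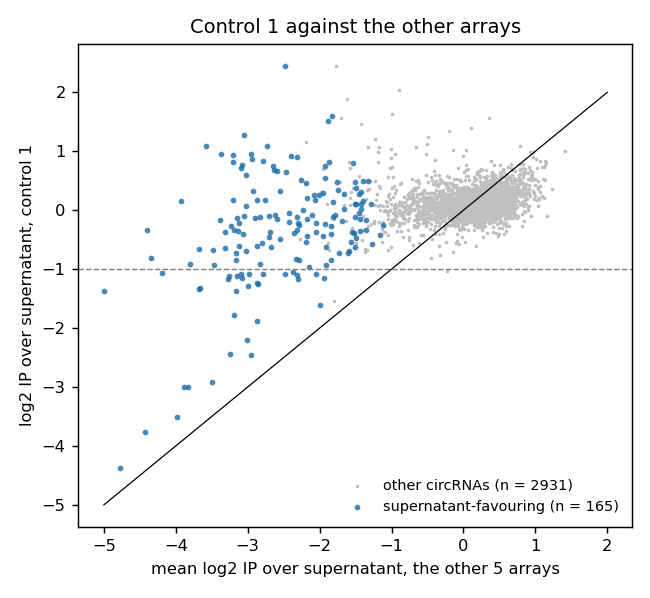
Log2 IP over supernatant ratio on control 1 (vertical axis) against the mean log2 ratio over the other 5 arrays (horizontal axis), with 1 point per circRNA: blue for the 165 supernatant-favouring circRNAs, grey for the other 2931. The solid line marks equal values and the dashed line -1; most blue points lie far above the line of equality, and 9 of them lie below -2 on control 1.

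Control 1 differed from the other arrays mostly in the supernatant channel. Each channel was set on the log2 scale against the array's 75th percentile over circRNA probes, so a value compares 1 circRNA between arrays. The median supernatant signal of the 165 was 2.09 on control 1, against 3.99 on control 2, 4.44 on control 3 and 4.10, 3.99 and 4.08 on CIH 1, 2 and 3. Relative to its own mean over the other 5 arrays, the supernatant signal on control 1 was lower by a median of 3.68-fold, a log2 difference of -1.88. It was below all 5 other arrays for 155 of the 165, and for 323 of the other 2931 circRNAs.

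In the IP channel control 1 lay nearer to the other arrays. The median IP signal of the 165 was 1.80 on control 1, 1.18 on control 2, 1.24 on control 3, and 1.81, 1.56 and 1.61 on CIH 1, 2 and 3. The IP signal on control 1 differed from the mean of the other 5 arrays by a median of 0.16 on the log2 scale, and lay outside the range of those arrays for 16 members on the lower side and 43 on the upper side (9.70% and 26.1%), against 1.64% and 46.3% of the other 2931. The total of both channels was lower on control 1, by a median log2 difference of -1.33, in a sum that weighs the channels arbitrarily. The 33 members that stayed below -1 also had a lower supernatant signal there, by a median log2 difference of -1.83, as did the other 132 (-1.92).

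**Figure D3:**
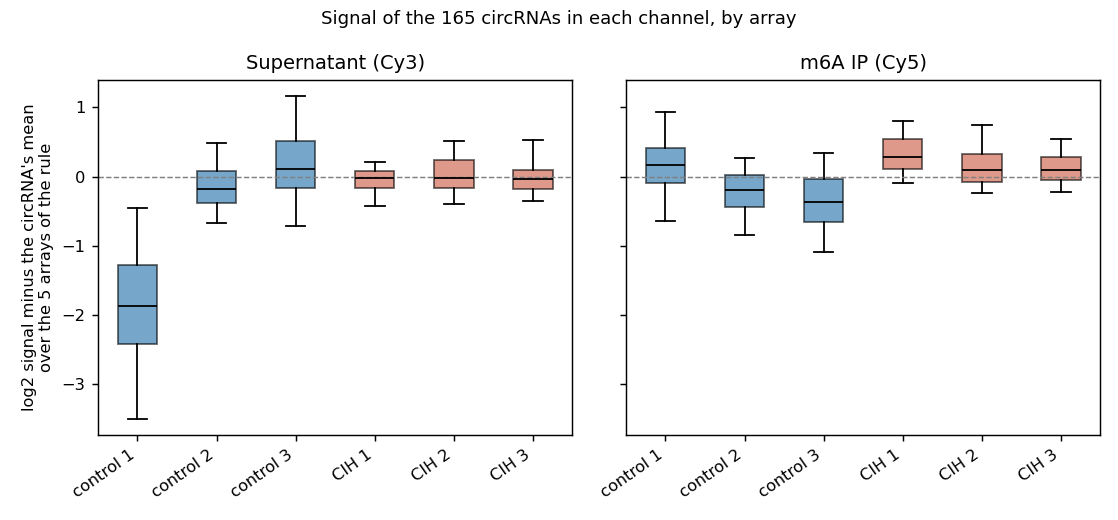
Log2 signal of each of the 165 circRNAs minus its own mean over the 5 arrays of the rule (vertical axis), by array, for the supernatant channel (left) and the IP channel (right); boxes give quartiles, whiskers percentiles 5 and 95, blue control and red CIH. In the supernatant channel the control 1 box lies at a median of -1.88, and in the IP channel controls 2 and 3 lie lowest.

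The depth of the low ratios followed how widely the other circRNAs were spread on the same array. The SD of the log2 ratio over the other 2931 circRNAs was 0.25 on control 1, 0.43 on CIH 1, 0.49 on CIH 3, 0.50 on CIH 2, 0.53 on control 2 and 0.68 on control 3. The median ratio of the 165 fell in the same order of arrays, from -0.25 to -2.90. Expressed in these SDs, as the distance from the median of the others, the 165 lay at -5.30 and -4.42 on control 2 and 3 and at -5.10, -5.08 and -4.98 on CIH 1, 2 and 3, so the groups overlapped. On control 1 they lay at -1.42.

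**Figure D4:**
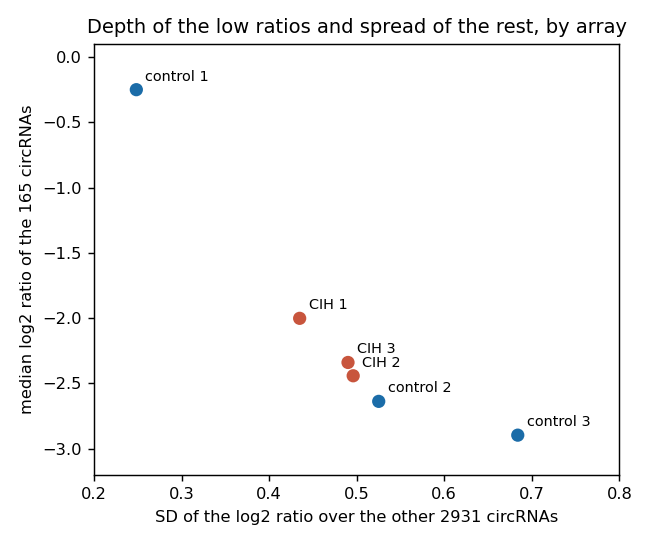
Median log2 ratio of the 165 circRNAs (vertical axis) against the SD of the log2 ratio over the other 2931 circRNAs (horizontal axis), with 1 point per array, blue for control and red for CIH. The 6 arrays have the same order on both axes, from control 1 (0.25, -0.25) to control 3 (0.68, -2.90).

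The first comparison between groups was of the partition itself, CIH against control. No member passed in the log ratio, in either direction, where 0 of 6915 circRNAs tested passed (0%). The limma test over the whole table gave 0.999 as the lowest adjusted p of the members, and 0 members passed without moderation either. Even unadjusted, p was under 0.05 for 0 members on either side (1.14% of all tested higher and 1.39% lower). The median change of the 165, CIH minus control, was -0.34 on the log2 scale, beside -0.03 over all tested, and 144 of the 165 were below 0, where 45.9% of all tested were above 0. The groups did not overlap for 0 members on the higher side (3.24%) and 2 on the lower (2.2%). Without control 1 the median change was 0.45, beside -0.01 over all tested, and 140 of the 165 were above 0 (48.6% of all tested). Again 0 passed, with an unadjusted p under 0.05 for 18 on the higher and 0 on the lower side (2.91% and 2.94% of all tested). The sign of the set's change thus differed with and without 1 control array. With all 6 arrays kept it also turned with normexp background correction (median 0.03, 95 above 0) and with array weights (0.06, 87 above 0). It was -0.10 with slide as a block and -0.68 with the ratios set to a common spread.

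Without control 1, 73 of the 165 had a higher ratio on each CIH array than on control 2 and 3 (11% of all tested) and 2 a lower one (9.3%). The rule read these same ratios. With each array's ratios set to a common spread, the median change of the 165 without control 1 was -0.14, with 61 above 0.

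By the smallest unadjusted p, the members highest in CIH were ASCRP4013159 and ASCRP4006903. ASCRP4013159 had ratios of -1.60, -2.58 and -2.70 on control 1, 2 and 3 and of -1.48, -1.79 and -1.45 on CIH 1, 2 and 3; its change of 0.72 (SE 0.48) had a limma adjusted p of 0.999. The groups overlapped, in control 1 and CIH 2. ASCRP4006903 had -1.16, -2.03 and -3.61 in control and -1.49, -1.45 and -1.12 in CIH. On the lower side ASCRP4003188 had 0.11, -1.10 and -1.17 in control and -1.17, -1.53 and -1.45 in CIH, and ASCRP4000490 had -0.19, -1.13 and -1.84 against -1.47, -2.24 and -1.80. In both, control 1 was the highest array. Without control 1 the change of ASCRP4003188 went from -0.67 to -0.25 and that of ASCRP4000490 from -0.78 to -0.35. That of ASCRP4013159 was then 1.07, and that of ASCRP4006903 went from 0.91 to 1.47.

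The IP signal, a relative signal of the precipitated fraction on each array's own scale, was higher in CIH for part of the set. Of the 165, 12 rose past the threshold and 0 fell, which is 7.27% of the set where 88 of 6274 circRNAs tested with limma (1.4%) rose and 0 (0%) fell. Without moderation 0 members and 0 of all tested passed, and with normexp none of these 12 did. The 12 are 13.6% of those 88. The rule read both channels through their ratio. The members' shares in either channel or in their sum, here and below, are thus not independent of the choice and are given as a description. In the moderated test, an unadjusted p under 0.05 was reached by 55 members on the higher side (7.27% of all tested) and 0 on the lower (2.82%). All 3 CIH arrays lay above all 3 control arrays for 43 of the 165 (7.95% of all tested) and below them for 0 (8.77%). The median change of the 165 was 0.25, beside -0.13 over all tested, with 118 above 0 (31% of all tested). With median scaling it was -0.03 beside -0.40, so its sign flipped while its distance from all tested stayed at 0.37; at an unadjusted p under 0.05 25 members were then on the higher side and 6 on the lower, and 1 passed the threshold. Without control 1, 19 members passed, of 35 circRNAs in all (0.558%), and 66 were higher at an unadjusted p under 0.05 (6.63%) and 0 lower (0.877%). The groups then did not overlap for 83 members on the higher side (10.7%) and 1 on the lower (10.9%). Of the 12, 8 passed in both.

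Without CIH 1 0 members passed, and without CIH 2 also 0, where 0 of all tested passed in each case. It was 0 also with slide as a block, where CIH 1 is the only exposed array beside the controls. There the median change of the 165 was 0.39.

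The 12 rose by 1.79-fold at the least and 2.95-fold at the most, with 2.28-fold in the middle. ASCRP4007838 had a log2 IP signal of 5.90, 5.32 and 5.48 on control 1, 2 and 3 and of 7.27, 7.11 and 7.0 on CIH 1, 2 and 3. All CIH values lay above all control values, and the group means differed by 2.95-fold (log2 change 1.56, SE 0.18, limma adjusted p = 0.00807). Its supernatant signal was 3.53, 8.26 and 9.48 in control and 8.95, 9.16 and 8.68 in CIH, so that control 1 alone was low there. ASCRP4006291 had an IP signal of 5.01, 4.61 and 4.32 in control and 5.86, 6.18 and 5.82 in CIH, a 2.47-fold rise (log2 change 1.31, SE 0.20, limma adjusted p = 0.0138). Its supernatant signal was 6.18, 7.92 and 8.18 in control and 8.34, 9.07 and 8.68 in CIH, with no overlap either.

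The supernatant signal of the 12 was also higher in CIH in each case, by a median of 2.16-fold, and their log2 ratio differed by a median of -0.02. Without control 1, the supernatant signal of 11 of the 12 was still higher, by a median of 1.27-fold, and the ratio of all 12 was higher, by a median of 1.83-fold. Of the 12, 7 belonged to the 33 members that stayed below -1 on control 1. ASCRP4013159, named above for its ratio, was among the 12, with a log2 IP signal of -0.47, -0.72 and -0.94 in control and 0.52, 0.73 and 0.45 in CIH (2.42-fold, limma adjusted p = 0.0204).

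**Figure D5:**
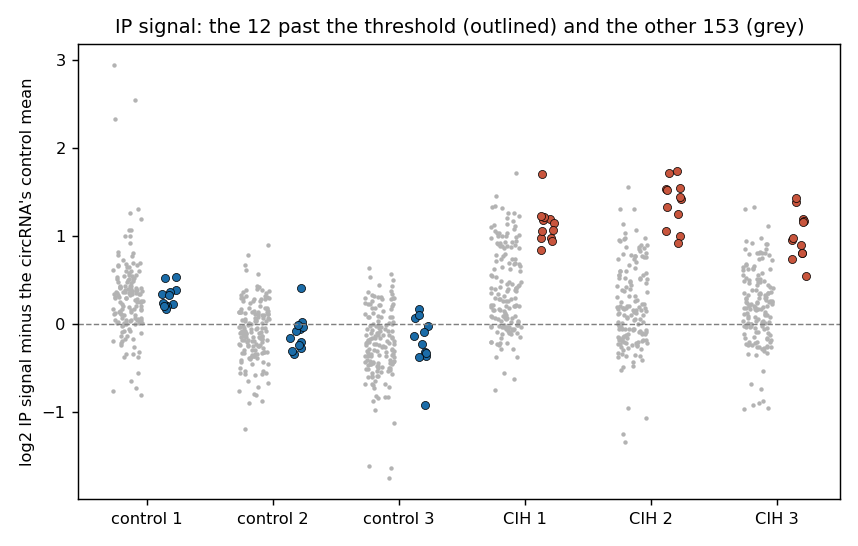
Log2 IP signal of each of the 165 circRNAs minus its own mean over the 3 control arrays (vertical axis), by array: outlined points are the 12 past the threshold (blue control, red CIH), grey points the other 153. The outlined points were picked on these values; the grey ones on CIH arrays also center above those on control 2 and control 3, while those on control 1 center about as high as on CIH 1.

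No member fell past the threshold in the IP signal, while the change was below 0 for 47 of the 165. The smallest unadjusted p on the lower side belonged to ASCRP4011842, with 0.38, -0.78 and 0.45 in control and -0.36, -0.94 and -0.33 in CIH (limma adjusted p = 0.599), and to ASCRP4010292, with 0.30, -0.05 and -0.54 against -0.25, -0.46 and -1.06. The groups overlapped in both.

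The supernatant signal passed for 0 of the 165, where 0 of 5425 tested passed (0%) in limma and 0 without moderation. An unadjusted p under 0.05 was reached by 9 on the higher side (3.56% of all tested) and 4 on the lower (1.09%). The groups did not overlap for 18 members higher in CIH (5.14%) and 5 lower (8.13%). The median change was 0.59, beside -0.13 over all tested, with 149 above 0 (38% of all tested). It was 0.21 with normexp, 0.26 with median scaling and 0.28 with array weights. Without control 1 it was -0.03, beside -0.06 over all tested, with 81 above 0 (41.8%) and 84 below. The shift of the set toward CIH was thus present with control 1 and near 0 without it. Without that array 0 passed, an unadjusted p under 0.05 was reached by 10 on the higher side (3.3%) and 6 on the lower (1.22%), and the groups did not overlap for 18 higher (8.04%) and 17 lower (10.6%).

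ASCRP4002183 had a log2 supernatant signal of 4.06, 4.38 and 4.55 on control 1, 2 and 3 and of 3.39, 3.54 and 3.20 on CIH 1, 2 and 3. It was lower on each CIH array than on any control array, with a change of -0.95 (SE 0.19, limma adjusted p = 0.686). ASCRP4010293 had 4.26, 4.66 and 4.77 against 3.76, 3.82 and 3.51, also without overlap. In both, control 1 was the lowest of the controls yet above every CIH array, and the ratio there stayed at -3.52 and -3.0. On the higher side ASCRP4011910 had 2.52, 3.46 and 2.61 in control and 3.94, 4.02 and 3.41 in CIH, where control 2 and CIH 3 overlapped. ASCRP4006387 had -0.04, 1.96 and 1.92 against 2.38, 2.47 and 2.89. Without control 1 the change of ASCRP4006387 went from 1.30 to 0.64 and that of ASCRP4011910 from 0.93 to 0.76. Those of ASCRP4002183 and ASCRP4010293 were then -1.09 and -1.02.

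The total signal, the log2 of both channels summed, passed for 0 of the 165 and for 0 of 6915 tested (0%) in limma, and for 0 without moderation. An unadjusted p under 0.05 was reached by 38 on the higher side (7.94% of all tested) and 4 on the lower (1.75%). The groups did not overlap for 29 members higher in CIH (8.46%) and 5 lower (8.73%). Without control 1, 0 passed, an unadjusted p under 0.05 was reached by 22 on the higher side (5.18%) and 5 on the lower (0.954%), and the groups did not overlap for 29 higher (9.63%) and 12 lower (9.83%). The median change was 0.51 with all arrays and 0.08 without control 1, beside -0.13 and -0.05 over all tested, and 0.19 with normexp and 0.27 with median scaling. ASCRP4006387 had 0.18, 1.36 and 1.13 in control and 1.93, 1.93 and 2.20 in CIH (log2 change 1.13, SE 0.29, limma adjusted p = 0.239). ASCRP4011756 had 3.03, 4.27 and 3.69 in control and 4.75, 4.53 and 4.55 in CIH, without overlap as for ASCRP4006387. ASCRP4002183 and ASCRP4010293 again were the lowest by p, with changes of -0.88 and -0.82 (limma adjusted p = 0.228 for both). Without control 1 the changes of these were -0.99 and -0.93. Those of ASCRP4006387 and ASCRP4011756 were then 0.78 and 0.63.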

How the data were processed

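The deposited files are scanner tables, 1 per array, from Agilent Feature Extraction 11.0.1.1 per the file headers. Their processed signals are intensity values that the software had background-corrected and dye-normalized (linear, then lowess), per the file headers. The log ratio the authors deposited is log10 of red over green; red is the IP and green the supernatant per the labels' protocols. Here log2 ratios were computed from the processed signals, with the median circRNA probe of each array set to 0. Channel signals, and the log2 of their sum, were set against the array's 75th percentile of circRNA probes. Spots marked as outliers were dropped.

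A probe was tested if detected on 3 or more of the 6 arrays, in the channel tested, or in either one for ratio and total. All 165 passed, as their rule requires. CIH and control were set against each other in limma 3.58.1 (R 4.3.3; trended moderation, two-sided tests, no covariate), with Benjamini-Hochberg adjustment over all probes tested and a threshold of 0.05; the code was tested on simulated data. The number of arrays limits the precision.

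The members, their rule and the lists were chosen with earlier results of these data known. Named are the members or neighbours at the ends of the ratio, of its SD, of control 1 and of the cutoff, and per measure the 2 with the smallest unadjusted p in each direction. Of the 50 mRNA probes, 46 were named through a RefSeq table of assembly GRCm38.p6. Cell type markers were looked for among those mRNA probes only, and the lists of host genes could not be applied, since no circRNA ID was paired with a host.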

Additional observations from a re-analysis of the deposited data

How the results depend on the processing

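The number of members was 276 with a cutoff of -0.5, 108 with -1.5, 33 when control 1 had to meet the rule too, 49 with normexp on median signals (offset 50), 329 with detection in the supernatant channel only and 68 with an IP signal at least 5 times background. With normexp 20 of the original 165 were below -1 on control 1, against 33. The number of members that passed in the IP signal is given with that over all tested in brackets, against 12 (88). It was 1 (36) with normexp, not among the 12, 2 (21) without dye normalization and 1 (35) with median scaling. It was 3 (4) with median scaling and control 1 left out, 0 (0) without moderation and 0 (6) where slide entered as a block. It was 30 (202) with spike-in scaling, 40 (289) without the filter on dim probes and 23 (227) with array weights. With the percentile over detected circRNAs it was 19 (92), and with an unadjusted p and at least 1.5-fold 51 (538). Without single replicates it ran from 0 (0) to 20 (184). The median IP change was -0.026 with median scaling and 0.39 on slide 1 by itself. In the supernatant signal 13 (241) passed with an unadjusted p and at least 1.5-fold. With median scaling and control 1 left out 5 (43) passed, and the median change was -0.30, beside -0.33 over all tested. In the total signal 2 (29) passed with normexp, 6 (81) with median scaling and 4 (13) with median scaling and control 1 left out. Without the filter 8 (107) passed, with an unadjusted p and at least 1.5-fold 41 (627), and without single replicates 0 (0) to 6 (133). For none of these changes was the cause tested. With a replicate block 0 members passed in the IP signal. The median changes stayed as they were, which the design fixes, since each number holds 1 control and 1 CIH array. Same-numbered deviations correlated at -0.03, 0.02 and -0.24 in the IP signal and at 0.12, 0.27 and -0.01 in the supernatant signal. In the log ratio they correlated at 0.24, 0.10 and -0.03. Deviations with different numbers ran from -0.22 to 0.22 in the IP signal, -0.23 to 0.10 in the supernatant signal and -0.32 to 0.27 in the log ratio. These values do not settle whether the numbers pair the samples. Settings with control 1 left out together with another choice, a common spread, the percentile over detected circRNAs, the background multiple, outlier spots kept and slide 1 alone were chosen after the data were seen.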
